A study of Drosophila melanogaster with 2 samples.

Results

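The regions described here were strong ChIP-seq peaks of 1 replicate, replicate 3, that had no peak summit close by in the other, replicate 1. A peak is a stretch of genome where immunoprecipitated DNA piles up, and its summit is the position of the highest pile. The 2322 replicate 3 peaks with the highest signal value were taken, as many as the list of peaks past the irreproducible discovery rate (IDR) threshold holds, and those with no replicate 1 summit within 100 bp were kept. This selection left 242 of 2322 strong peaks (10.4%), out of 30000 peaks in the replicate 3 list as a whole, and the other 2080 strong peaks are called shared. A shared peak needs a replicate 1 summit of any strength, and the nearest ones had ranks 1 to 28203 (median 1163). Membership was thus chosen by signal rank in replicate 3 and by distance to the nearest summit among the 28743 peaks of replicate 1, so both are given only as a description.

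The libraries were made from whole Drosophila melanogaster embryos of both sexes, collected over 0 to 24 h of development. All embryos came from 1 transgenic line, stably expressing Trachealess (Trh) with GFP fused to its C terminus, and the immunoprecipitation used an antibody against GFP. The 2 samples are biological replicates of a single group, both called against 1 shared control alignment. There was no second genotype, treatment or stage, so the comparison below is between peaks within the replicate 3 list. Trh, a bHLH-PAS transcription factor, binds DNA together with its partner Tango. It is known for starting the formation of the tracheae, the tubes that bring air to the tissues of the fly, and it also acts in the salivary ducts and the posterior spiracles. In whole embryos the DNA of tracheal cells is mixed with that of every other cell, and no cell type was named from these data. IDR methods keep the peaks whose rank is alike in both replicates, which makes strong peaks of 1 replicate alone the ones such a list tends to drop.

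Most of the 242 peaks were near misses and a minority had no counterpart. An interval overlapping a replicate 1 peak by at least 1 bp was found for 192 of 242 peaks (79.3%, exact 95% interval 73.7 to 84.3), called displaced here, and their summits lay at most 317 bp from the nearest replicate 1 summit. The other 50 (20.7%, 15.7 to 26.3), called absent, overlapped no replicate 1 peak. They were 2.15% (1.60 to 2.83) of all 2322 strong peaks. Exact intervals are Clopper-Pearson intervals and cover counting error only. The fragment size range in the labels starts above most of the displaced distances. Displaced thus names an offset between called summits and not a separate binding site. The following windows are printed because they show both kinds at base level. They are read from the RefSeq release 6 genome on the plus strand. In the first pair, both displaced, capitals run from the replicate 3 summit to the replicate 1 summit, with 30 bases beyond each.

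One of the strongest displaced peaks lay beside the start of brwl on chr2L:9570023-9570223 with 140 bp between the summits. The next in rank lay between genes, nearest to CG43245, on chr3L:10752631-10752829 with 138 bp between them.
brwl: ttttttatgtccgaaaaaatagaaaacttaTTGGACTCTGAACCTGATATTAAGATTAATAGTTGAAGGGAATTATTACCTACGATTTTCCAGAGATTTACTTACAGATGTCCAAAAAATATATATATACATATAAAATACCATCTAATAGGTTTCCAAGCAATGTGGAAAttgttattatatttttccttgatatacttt
CG43245: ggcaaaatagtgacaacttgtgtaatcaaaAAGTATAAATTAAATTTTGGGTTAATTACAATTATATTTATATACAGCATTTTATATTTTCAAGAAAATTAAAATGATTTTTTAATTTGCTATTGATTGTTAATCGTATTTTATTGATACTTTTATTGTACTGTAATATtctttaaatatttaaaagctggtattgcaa
Both windows are rich in A and T, and the GC content within 50 bp of the replicate 3 summit was 29.7% at brwl and 23.8% at CG43245.

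Absent peaks are represented by windows that reach 50 bases to each side of the replicate 3 summit. The summit base is in capitals in the 4 intronic windows, which hold the strongest absent peak and those in regulator genes or with an E-box. These lie in nAChRalpha3 (chrX:8294272-8294372), which codes for a nicotinic acetylcholine receptor subunit, in Dsor1 (chrX:9248184-9248284), the MAP kinase kinase of the Ras pathway, in ftz-f1 (chr3L:18795508-18795608), a nuclear receptor, and in sky (chr2L:20879993-20880093).
nAChRalpha3: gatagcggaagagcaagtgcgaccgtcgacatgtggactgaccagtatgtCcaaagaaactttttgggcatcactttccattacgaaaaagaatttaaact
Dsor1: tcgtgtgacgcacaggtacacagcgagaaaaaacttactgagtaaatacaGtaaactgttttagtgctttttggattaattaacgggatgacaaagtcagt
ftz-f1: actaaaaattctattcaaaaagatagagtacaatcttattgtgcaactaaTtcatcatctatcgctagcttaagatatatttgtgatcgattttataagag
sky: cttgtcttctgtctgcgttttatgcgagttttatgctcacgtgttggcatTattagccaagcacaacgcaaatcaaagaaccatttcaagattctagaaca
The sky window holds CACGTG, the palindromic E-box. Capitals mark protein-coding bases in the next 2 windows, which were chosen to show absent peaks whose whole window is coding. They lie in CG1103 (chr3R:4339287-4339387) and CG9018 (chr3L:2236471-2236571).
CG1103: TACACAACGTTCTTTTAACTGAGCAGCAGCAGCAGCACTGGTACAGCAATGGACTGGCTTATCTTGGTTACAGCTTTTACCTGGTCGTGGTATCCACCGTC
CG9018: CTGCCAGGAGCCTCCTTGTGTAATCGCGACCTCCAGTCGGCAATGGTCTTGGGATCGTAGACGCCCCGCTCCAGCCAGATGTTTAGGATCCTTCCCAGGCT
GC content was 48.5% in the CG1103 window and 59.4% in the CG9018 window, against 42.6% at nAChRalpha3, 37.6% at Dsor1, 26.7% at ftz-f1 and 39.6% at sky.

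The sequence that Trh and Tango are known to bind has the core ACGTG, and TACGTG is its longer form. Of the 5 peaks of the set with TACGTG on either strand, 3 are shown for where the sequence lies, with the site in capitals (CACGTA is TACGTG read on the other strand). All 3 are displaced peaks beside gene starts, nearest to Dyro (chr3L:11296200-11296300), lute (chr3R:17385601-17385701) and Pits (chrX:12583518-12583618).
Dyro: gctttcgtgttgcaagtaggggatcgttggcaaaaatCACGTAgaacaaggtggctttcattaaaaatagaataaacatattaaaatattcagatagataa
lute: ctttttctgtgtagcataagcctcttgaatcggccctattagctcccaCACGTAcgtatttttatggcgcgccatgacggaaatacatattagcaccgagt
Pits: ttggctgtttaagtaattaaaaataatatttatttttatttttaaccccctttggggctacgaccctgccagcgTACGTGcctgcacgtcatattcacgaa
The Dyro peak had a signal value of 46.7 and rank 996, the lute peak 37.0 and rank 1575, and the Pits peak 31.3 and rank 2120.

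In signal rank the 242 peaks sat toward the weak end of the strong peaks. The signal value is a score the authors' peak caller gave each peak and is compared only within a list. It had a median of 34.6 in the set (29.9 to 101.2) and 44.8 in the shared peaks (29.9 to 416.5). The median rank was 1773.5 in the set and 1082.5 in the shared peaks, with the strongest member at rank 176. The deposited −log10 q value had a median of 1.82 in the set and 2.76 in the shared peaks. In the absent peaks its median was 1.49, and the lowest value was 1.27 both in the set and in the shared peaks. Ranks describe how the set was composed and were not tested, since they chose the members.

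The share of strong peaks that belonged to the set grew as signal fell. It was 3.01% (14 of 465) among ranks 1 to 465 and 3.23% (15 of 465) among ranks 466 to 930. It was then 9.27% (43 of 464), 14.7% (68 of 464) and, at ranks 1859 to 2322, 22.0% (102 of 464). Absent peaks had a steeper profile. None of the 930 strongest peaks was absent, 1 lay among ranks 931 to 1394, 11 among the next 464 and 38 (8.19%) among the last 464. The first absent peak, in nAChRalpha3, had rank 1263 and a signal value of 41.6.

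**Figure D1:**
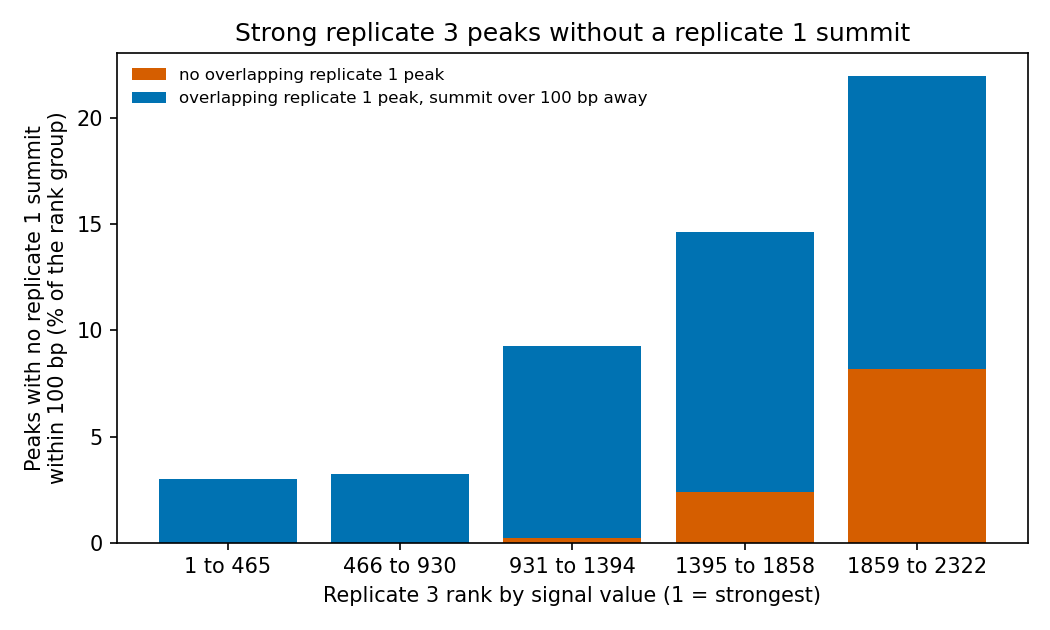
Share of strong replicate 3 peaks (y axis, %) with no replicate 1 summit within 100 bp, in 5 groups of ranks by signal value (x axis, strongest at left). Orange parts are peaks with no overlapping replicate 1 peak and blue parts those with one; the whole bar is 3.01% at ranks 1 to 465 and 22.0% at ranks 1859 to 2322.

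Distances fell into 2 ranges with a gap between them. The median distance to the nearest replicate 1 summit was 162.5 bp over all 242 peaks, 140 bp over the displaced and 1314.5 bp over the absent ones. The nearest summit was within 150 bp for 108 peaks, within 200 bp for 150 and within 300 bp for 187. No member lay between 317 bp, the farthest displaced peak, and 419 bp, the nearest absent one. Peaks were at most 384 bp wide in replicate 3 and 400 bp in replicate 1, so overlap itself sets where the 2 kinds part. Over 5000 bp separated 6 absent peaks from any replicate 1 summit, the farthest being 13699 bp away near Tektin-A.

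**Figure D2:**
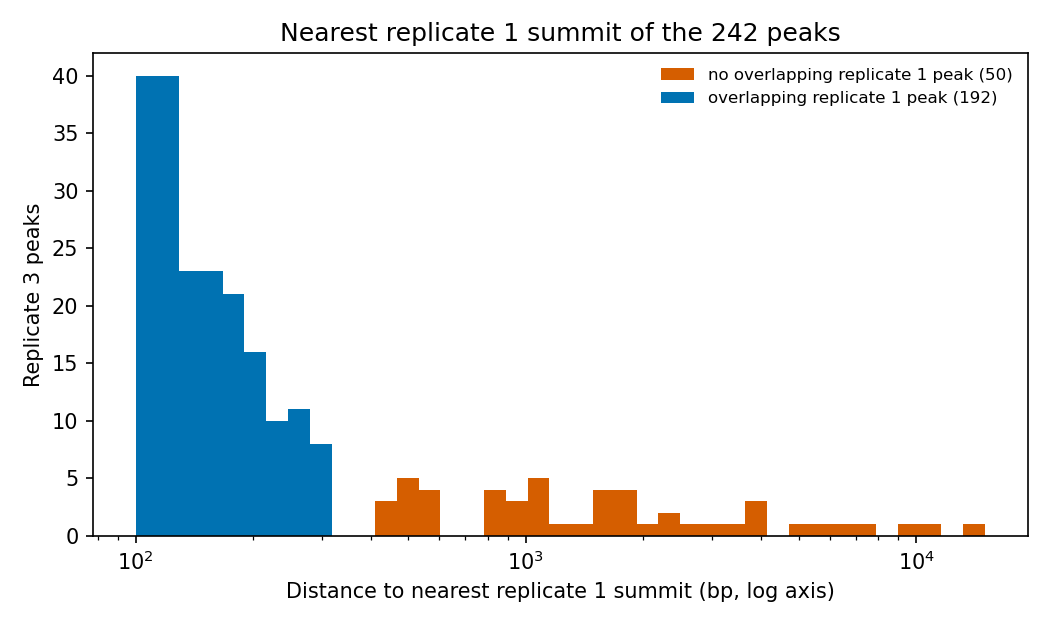
Number of peaks of the set (y axis) by distance from the replicate 3 summit to the nearest replicate 1 summit (x axis, bp, log scale). The 192 displaced peaks (blue) end at 317 bp and the 50 absent peaks (orange) begin at 419 bp.

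At the thresholds the values ran on without a step. The last strong peak, in CG6059, had a signal value of 29.87 at rank 2322, and the first one left out, near drn, had 29.86 at rank 2323. Peaks in gukh and at SREBP and CG9662 were members with summits 1 bp past the limit, while peaks at CG2201, bowl and CG8209 were shared with 100 bp. Signal values were 41.2 at gukh, 41.0 at SREBP and 39.9 at CG9662, against 48.7 at CG2201, 37.5 at bowl and 37.2 at CG8209.

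Many displaced peaks stood in pairs of summits. Another replicate 3 summit lay within 300 bp of 98 of 192 displaced peaks (51%), 6 of 50 absent peaks (12%) and 405 of 2080 shared peaks (19.5%). Summits in the replicate 3 list were never closer than 199 bp to each other. For 83 of 192 displaced peaks, the nearest replicate 1 summit was itself matched within 100 bp by another replicate 3 summit, and that other summit had the higher signal value in 15 of the 83. For the other 109 displaced peaks no second replicate 3 summit took the place of the replicate 1 one. Since distance to replicate 1 defines these peaks, the counts are a description.

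The peak at spi shows a pair of the less frequent kind, where the other replicate 3 summit has the higher signal value (15 of 83). spi codes for Spitz, the main ligand of the EGF receptor in the embryo. Its member peak had a signal value of 33.5 at rank 1873, 365 bp from the gene start and 160 bp from a replicate 1 summit with a value of 175.2 in its own list. A second replicate 3 peak of the gene, 200 bp from the member, was shared and had a signal value of 120.1 at rank 110. The locus was therefore strong in both replicates, and only the weaker of the neighbouring replicate 3 summits lacked a counterpart.

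The replicate 1 peaks next to displaced members were of every strength. Within the replicate 1 list the nearest peak of a displaced member had a median rank of 2285.5. It stood among the 2322 strongest of replicate 1 for 98 of 192 displaced peaks (51%), among the 1000 strongest for 47 and past rank 10000 for 24. Around absent peaks the nearest replicate 1 peak had a median rank of 12898, with 5 of 50 among the 2322 strongest and 31 past rank 10000. The 5 were near hth, scyl, glec, CG10734 and l(3)neo38, named after their values were seen.

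**Figure D3:**
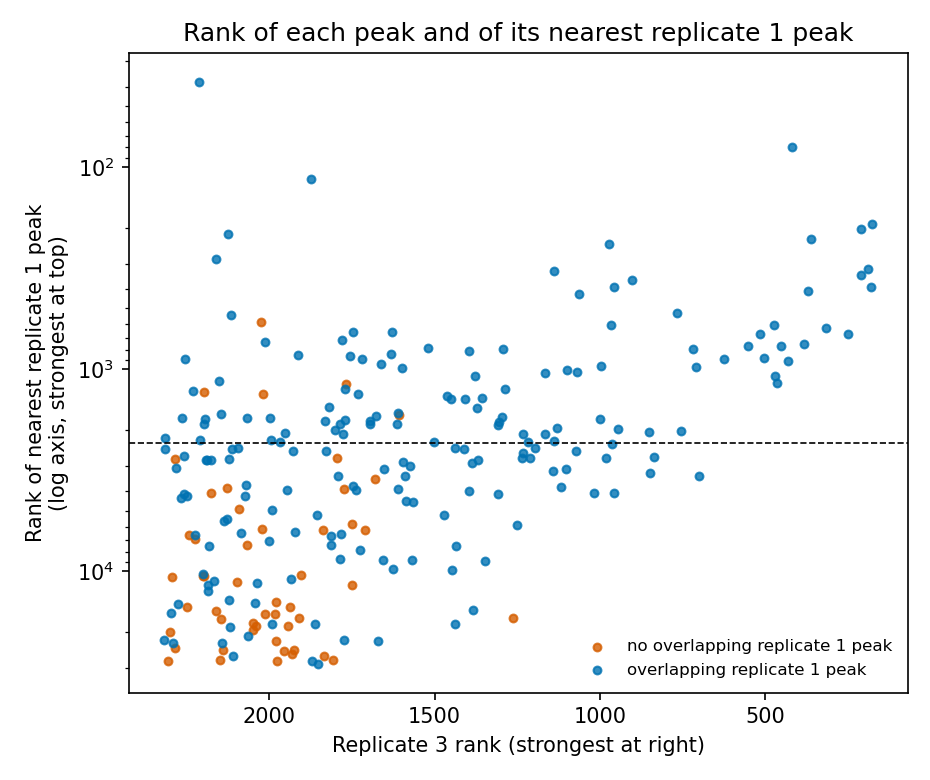
Rank of each of the 242 peaks in the replicate 3 list (x axis, strongest at right) against the rank of its nearest replicate 1 peak in the replicate 1 list (y axis, log scale, strongest at top). Blue points are displaced and orange points absent peaks; 98 blue and 5 orange points lie above the dashed line at rank 2322.

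Summits of the list called on both replicates pooled lay near more members than those of the list past IDR. A pooled summit lay within 100 bp of 182 of 242 members (75.2%) and of 2063 of 2080 shared peaks (99.2%). It did so for 47 of 50 absent peaks (94.0%), whose nearest pooled peak had a median rank of 6735, and for 135 of 192 displaced peaks (70.3%), with a median rank of 2114. A summit of the list past IDR lay within 100 bp of 61 members (25.2%), all of them displaced, and of 1789 shared peaks (86.0%). None of the 50 absent peaks had one, also not within 200 bp. Within 200 bp, 231 members (95.5%) had a pooled summit and 106 (43.8%) one of the list past IDR. The pooled and IDR lists were made from the same libraries and are no separate evidence.

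The 25 strongest members, ranks 176 to 767, were all displaced. They are given with the role of the nearest gene where it is known. Peaks of high rank lay at brwl (signal value 100.98, rank 178), CG43245 (99.3, rank 187), CG13321 (93.4, rank 209), MFS18 (93.1, rank 211) and CG15771 (86.7, rank 249). NimC3 (79.7, rank 314) codes for a phagocytosis receptor of the Nimrod family, Hem (75.4, rank 361) for a subunit of the actin-regulating WAVE complex and Kdm2 (74.6, rank 369) for a histone demethylase. CG12093 followed at 73.8 and rank 381.

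The rest of the 25 had signal values between 52.8 and 70.7. They included Vps33B, a vesicle trafficking protein, Mtap, an enzyme that recycles methylthioadenosine, Nhe3, a sodium and proton exchanger, and tum, a GTPase-activating protein needed for cytokinesis. Others were phr6-4, a DNA photolyase, RecQ5, a helicase, Wwox, an oxidoreductase, COX5A, a subunit of cytochrome c oxidase, and Ids, a sulfatase. The remaining 6 included CG9921, CG7330, l(2)37Bb, side-IV and CG4022. The replicate 1 peak next to Vps33B had rank 80 in its list, and that next to side-IV had rank 3363, which was the lowest of the 25.

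By location the set had fewer peaks at gene starts and more between genes than the shared peaks. A promoter was called where a summit lay within 500 bp of any annotated transcription start site (TSS). Of 242 members, 102 lay in promoters (42.1%, 35.9 to 48.6), against 1100 of 2080 shared peaks (52.9%, 50.7 to 55.05; ratio 0.797; Fisher's exact test, two-sided, adjusted p = 0.00447 over 7 classes). Intergenic summits numbered 49 in the set (20.2%, 15.4 to 25.9), against 249 in the shared peaks (12%, 10.6 to 13.4; ratio 1.69; adjusted p = 0.00368, same exact test). Protein-coding exons held 5 members (2.07%) and 5 shared peaks (0.240%; ratio 8.60; adjusted p = 0.00447, same exact test). In all, 3 of 7 location classes (42.9%) passed an adjusted p of 0.05. None of these 3 calls held with a match within 50 bp, where promoters held 50.7% of 735 members and 52.2% of 1587 shared peaks (adjusted p = 0.908, exact test). Intergenic shares were then 13.3% and 12.6% (adjusted p = 0.908, exact test) and coding-exon shares 0.816% and 0.252% (adjusted p = 0.576, exact test). P-values over peaks describe this list of peaks and not variation between embryos.

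The other 4 classes did not pass. Introns held 75 members (31.0%) and 690 shared peaks (33.2%; ratio 0.934; adjusted p = 0.516, exact test). 3' UTRs held 4 members and 10 shared peaks (adjusted p = 0.0870, exact test), non-coding exons 5 and 17 (adjusted p = 0.0992, exact test), and 5' UTRs 2 and 9 (adjusted p = 0.374, exact test).

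Signal rank moves with these shares, since promoter peaks were more frequent among the strongest. Among ranks 1859 to 2322 alone, 27.5% of 102 members and 42.5% of 362 shared peaks lay in promoters (ratio 0.645; Fisher's exact test, adjusted p = 0.0137). Intergenic shares there were 26.5% of members and 13.3% of shared peaks (ratio 1.996; adjusted p = 0.00822, same exact test). All 5 coding-exon members lay in that range of ranks, beside 1 shared peak. Among the 1000 strongest peaks the promoter share turned round, with 26 of 38 members (68.4%) and 576 of 962 shared peaks (59.9%; ratio 1.14; adjusted p = 0.737, exact test), and coding exons held 0 of 38 members and 2 of 962 shared peaks.

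The shift in location was largest in the absent peaks. Promoters held 11 of 50 absent peaks (22.0%) and 91 of 192 displaced peaks (47.4%). Intergenic summits made up 16 of 50 absent peaks (32.0%) and 33 of 192 displaced peaks (17.2%), and introns 14 of 50 (28.0%) and 61 of 192 (31.8%). With overlap of intervals as the criterion, the 50 absent peaks differed from the other 2272 strong peaks in promoters (22.0% against 52.4%; adjusted p = 7.05e-05, Fisher's exact test). They also differed in intergenic share (32.0% against 12.4%; adjusted p = 0.000687, same exact test). Rank was not matched in these tests, as the absent peaks had ranks 1263 to 2307 and the other strong peaks covered all ranks. The difference between absent and displaced peaks was not tested.

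All 5 coding-exon members were absent peaks, and no displaced peak was in this class. They lay in CG1103 (signal value 32.9), glec (32.0), which codes for the carbohydrate-binding protein gliolectin, CG9018 (31.3), CG42588 (31.2) and CG7083 (30.8), where the coding exon overlaps Prim1, a DNA primase subunit. These genes were named after their values were seen. The nearest replicate 1 summit was 503 bp away at glec and 4049 bp away at CG42588, the ends of the range. Among the strong peaks without an overlapping replicate 1 peak, coding exons held 10%, against 0.220% of the other strong peaks (adjusted p = 6.15e-06, Fisher's exact test, 5 peaks in each). Here too rank was not matched, as the other strong peaks covered all ranks.

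**Figure D4:**
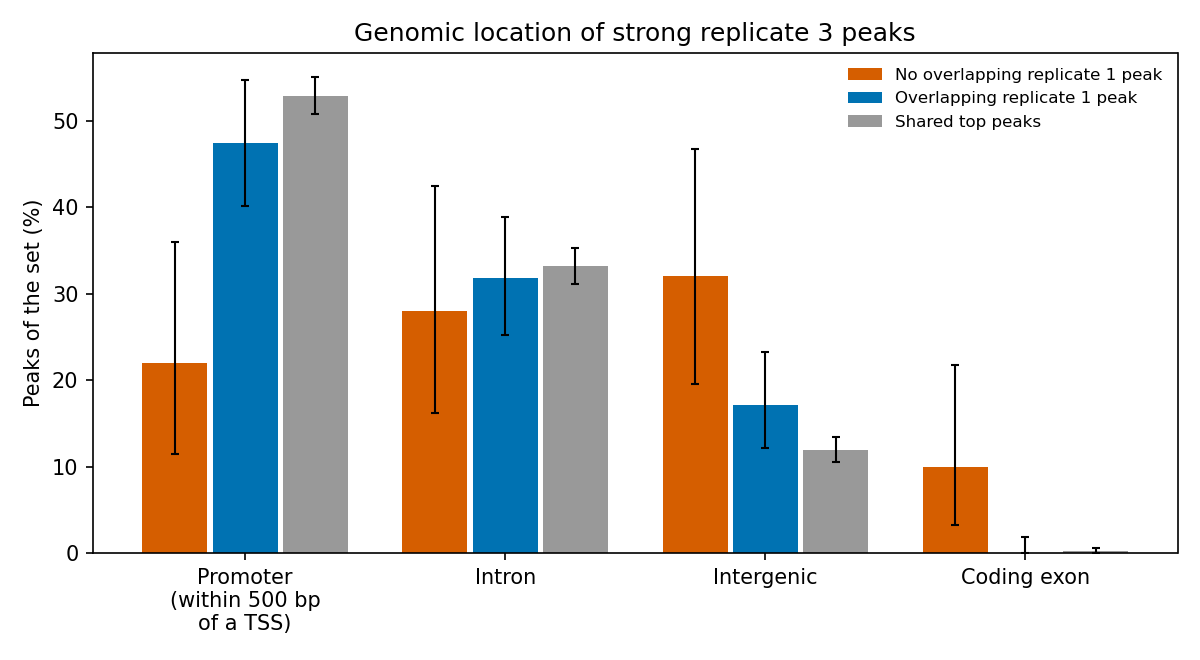
Share of absent (orange, n = 50), displaced (blue, n = 192) and shared (grey, n = 2080) strong replicate 3 peaks in 4 location classes (y axis, %), with exact 95% intervals for counting error. The promoter share is 22.0% in absent, 47.4% in displaced and 52.9% in shared peaks, and the intergenic share is 32.0%, 17.2% and 12% in the same order.

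Distance from gene starts pointed the same way as the intergenic share. The median distance to the nearest TSS was 760 bp in the set, with 2197.5 bp in absent and 630.5 bp in displaced peaks, and 429.5 bp in the shared peaks. Over 5000 bp from a TSS lay 45 members (18.6%) and 248 shared peaks (11.9%; ratio 1.56; adjusted p = 0.00820 over 3 tests, Fisher's exact test). The call was lost with 1 peak kept per gene (12.9% against 9.50%, adjusted p = 0.174, exact test) and among ranks 1859 to 2322 (23.5% against 15.5%, adjusted p = 0.111, exact test). It was also lost among ranks from 1162 (20.2% against 15.4%, adjusted p = 0.108, exact test) and among the 1000 strongest peaks (10.5% against 8.52%, adjusted p = 0.662, exact test).

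Base composition at the summit differed as well. GC content within 50 bp of the summit had a median of 34.7% in the set, made up of 40.1% in absent and 34.2% in displaced peaks, and 32.7% in the shared peaks. At least 40% GC was found in 78 of 242 members (32.2%) and in 459 of 2080 shared peaks (22.1%; ratio 1.46; adjusted p = 0.00203 over 3 tests, Fisher's exact test). Of the absent peaks 25 of 50 (50%) reached it, and of the displaced peaks 53 of 192 (27.6%). Within ranks 1859 to 2322 the shares were 48.04% of members and 29.0% of shared peaks (adjusted p = 0.00153, exact test). Among the 1000 strongest peaks the direction was the reverse, at 7.89% of 38 members and 17.6% of 962 shared peaks (adjusted p = 0.554, exact test). The call was also lost with 1 peak kept per gene (26.5% against 21.2%, adjusted p = 0.174, exact test), with a match within 50 bp (25.9% against 21.9%, adjusted p = 0.0585, exact test) and in windows reaching 100 bp to each side (26.9% against 21.1%, adjusted p = 0.0715, exact test).

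The extremes among absent peaks were far apart. The lowest GC content, 5.94%, was in a promoter peak nearest to sws, and the highest, 59.4%, in the coding window of CG9018 printed above. Repeat-masked sequence covered a median of 19.8% of the window in the set and 20.8% in the shared peaks. The part that amplification or mapping of GC-rich DNA has in these shares was not tested.

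**Figure D5:**
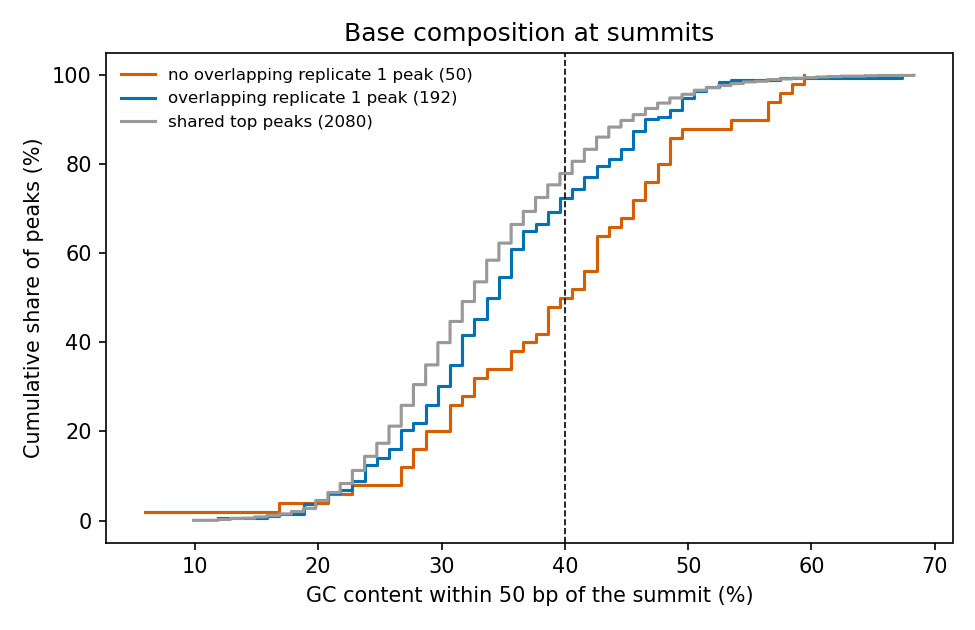
Cumulative share of peaks (y axis, %) by GC content within 50 bp of the replicate 3 summit (x axis, %), for absent (orange, n = 50), displaced (blue, n = 192) and shared (grey, n = 2080) peaks. The dashed line marks 40%, which 50% of absent, 27.6% of displaced and 22.1% of shared peaks reached.

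The members were spread over all arms. Chromosome arm 3L held 72 of 242 members (29.8%) and 459 of 2080 shared peaks (22.1%), which was not tested. The X chromosome held 32 members (13.2%) and 374 shared peaks (18.0%; ratio 0.735; adjusted p = 0.0733 over 3 tests, Fisher's exact test). The arms 2L, 2R and 3R held 54, 32 and 50 members, and chromosome 4 held 2.

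None of 15 sequences searched on both strands within 50 bp of the summit passed the test of a difference between the set and the shared peaks (0% called; Fisher's exact test per sequence, adjusted over the 15, with 0 of 15 also at an unadjusted p under 0.05). ACGTG, the core bound by Trh and Tango, was in 23 of 242 members (9.50%) and 127 of 2080 shared peaks (6.11%; ratio 1.56; unadjusted p = 0.0519, adjusted p = 0.778, exact test). TACGTG was in 5 members (2.07%) and 38 shared peaks (1.83%), and CACGTG, which contains ACGTG, in 3 (1.24%) and 21 (1.01%). TATAAA, the TATA box, was the most frequent sequence, in 48 members (19.8%) and 470 shared peaks (22.6%). TAATTA, a homeodomain type sequence, was in 25 members (10.3%) and 219 shared peaks (10.5%), GAGAG in 24 (9.92%) and 211 (10.1%), and CACACA in 17 (7.02%) and 132 (6.35%). TGTTTAC, a forkhead type sequence, was in 6 members (2.48%) and 88 shared peaks (4.23%). The other 7 were each in at most 8 members, and a match is a description of the letters in the window.

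Each peak was next given to the gene with the nearest protein-coding TSS. The 242 members fell to 230 genes, 1.65% of 13945 protein-coding genes on the main chromosome arms. That gene also held at least 1 of the 2322 strongest replicate 1 peaks for 128 members (52.9%), made up of 112 of 192 displaced (58.3%) and 16 of 50 absent peaks (32.0%). It did so for 1698 of 2080 shared peaks (81.6%). A shared strong peak was given to the same gene for 91 members (37.6%). These counts follow in part from the rule and were not tested.

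Developmental regulators took similar shares of the set and of the shared peaks. Lists of transcription factors and signalling genes of the embryo, 251 genes in all, received 14 of 242 members (5.79%, 3.20 to 9.52) and 144 of 2080 shared peaks (6.92%, 5.87 to 8.10). The 14 peaks belonged to 11 genes, while 84 of the 251 genes had a shared strong peak. Both kinds were present at 5 genes, hth, fkh, ftz-f1, pnt and spi. Another 5, ci, knrl, Mipp1, Egfr and Dsor1, had a member but no shared peak and none of the strongest 2322 of replicate 1. Of the 38 members within the 1000 strongest peaks 0 were at a regulator, beside 61 of 962 shared peaks (6.34%). With so few members the count of 0 was not read as a difference. No test was made on lists, since they were chosen with results known.

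Among the transcription factors on these lists the highest ranked was ci, the zinc-finger effector of Hedgehog signalling. Its promoter peak on chromosome 4, 109 bp from the gene start, had a signal value of 39.8 at rank 1384, and the replicate 1 summit 177 bp away had rank 15443. hth, a homeodomain cofactor of the Hox proteins, had an intergenic displaced peak (38.5, rank 1461) and an absent peak in a non-coding exon (36.6, rank 1606). At the displaced one the replicate 1 peak 138 bp away had rank 1355, so a strong peak was called in both replicates there.

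ftz-f1, a nuclear receptor that partners the pair-rule protein Ftz and acts in the ecdysone cascade, had the most members of any regulator. Its 3 intronic peaks had signal values of 36.9 (rank 1585), 30.9 (rank 2177) and 30.1 (rank 2286). The nearest replicate 1 summits were 255, 223 and 3434 bp away, so the weakest of the 3 was absent. Another 3 strong peaks of the gene were shared, the best at rank 1610.

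For genes with tracheal roles, 2 of 14 listed regulators had a member, beside 11 of all 251 listed regulators and 1.65% of all protein-coding genes. The list received 2 of 242 members (0.826%, 0.100 to 2.95) and 8 of 2080 shared peaks (0.385%, 0.166 to 0.756), which was not tested. These were knrl, a nuclear receptor related to knirps, with an intronic peak (34.5, rank 1783), and Mipp1, an inositol polyphosphate phosphatase, also intronic (31.6, rank 2073). Both were displaced, by 125 bp at knrl and 136 bp at Mipp1, and their nearest replicate 1 peaks had ranks 6520 and 4241. Of the same 14 genes, 6 had a shared strong peak.

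In the EGF receptor and Ras pathway 4 of 19 genes had a member and 9 had a shared strong peak. Beside this, 11 of the 251 listed regulators and 1.65% of all protein-coding genes had a member. The list received 4 of 242 members (1.65%, 0.452 to 4.18) and 21 of 2080 shared peaks (1.01%, 0.626 to 1.54), which was not tested. Along the pathway these were the ligand spi, described above, the receptor Egfr, the kinase Dsor1 and the ETS-domain effector pnt. The intronic Egfr peak had a signal value of 31.3 at rank 2122 and lay 131 bp from a replicate 1 summit of rank 13876. The Dsor1 peak, intronic too (34.8, rank 1749), was absent, with the nearest replicate 1 summit 1297 bp away. The pnt peak (30.3, rank 2259) lay between genes, 671 bp from the start, and was displaced by 187 bp. The 4 peaks were thus of different kinds, and the ranks of the 3 other than Dsor1 were all past 1858.

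The remaining regulators had 1 displaced peak each. At E(spl)m7-HLH, a bHLH repressor that Notch signalling turns on, a promoter peak had a signal value of 32.1 at rank 2013, 107 bp from a replicate 1 summit of rank 735. At fkh, the forkhead factor of gut and salivary gland, a peak in a non-coding exon had 30.6 at rank 2226, 106 bp from a replicate 1 summit. Among chromatin and neuronal genes, ph-d, of the Polycomb group, had a peak of 47.6 at rank 958, kis, a trithorax-group remodeller, one of 32.5 at rank 1967, and kirre, an immunoglobulin-family adhesion protein, one of 31.3 at rank 2123. Head and gap, pair-rule, dorsoventral, neural, mesodermal and epidermal regulators had 0 members, as did the FGF, Dpp, Wg and Hh, and JAK-STAT lists. These lists hold 8 to 40 genes each and received at most 14 of the 2080 shared peaks. The lists of insulator proteins, of actin and adhesion genes, of proteasome subunits and of translation factors had 0 members too, and 2 to 9 shared peaks each.

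Housekeeping genes took similar shares of both sets, with 8 of 242 members (3.31%) and 66 of 2080 shared peaks (3.17%). Cytosolic ribosomal proteins received 5 members (2.07%) and 41 shared peaks (1.97%). Among these were RpS26 with peaks at both gene ends (37.1, rank 1568, in the 3' UTR, and 36.6, rank 1611, in the promoter), RpS14a (35.0, rank 1720) and RpL27A (34.7, rank 1756). Other housekeeping members were the mitochondrial ribosomal protein mRpL37 (32.3, rank 1996) and the respiratory chain genes COX5A (53.1, rank 754) and ATPsynE (50.7, rank 836). All 8 were displaced peaks, by 116 to 254 bp, and none of the 50 absent peaks was at a housekeeping gene. The exact interval of that count of 0 is 0 to 7.11%, so it was not read as a difference.

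A few genes held several members. CG43245 on chromosome 3L was nearest to 4, ftz-f1 to 3, and CG6163, RpS26, gukh, hth, jing, raskol and sky to 2 each. Around CG43245, 9 strong replicate 3 peaks lay within a stretch of 34680 bp, of which 4 were members and 5 shared. The 4 members had signal values of 99.3, 49.1, 31.8 and 31.2, and the third of them was absent, 1023 bp from the nearest replicate 1 summit, while the others were 138 to 265 bp from one. Strong peaks of this stretch were thus called in both replicates, some with summits within 100 bp of each other and some with summits farther apart. jing, a zinc-finger factor, and gukh, sky and CG6163 each had 1 displaced and 1 absent peak, while both peaks of raskol, a Ras GTPase-activating protein, were displaced.

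The reverse selection gave a set of like size with another location profile. Of the 2322 strongest replicate 1 peaks, 268 had no replicate 3 summit within 100 bp, and 210 of these overlapped a replicate 3 peak while 58 did not. Promoters held 102 of 242 members (42.1%) and 153 of the 268 (57.1%; ratio 0.738; adjusted p = 0.00304 over 3 classes, Fisher's exact test, two-sided). Intergenic summits made up 20.2% of members and 12.3% of the 268 (ratio 1.64; adjusted p = 0.0239, same exact test). Introns held 31.0% of members and 27.2% of the 268 (ratio 1.14; adjusted p = 0.380, same exact test). The median distance to a TSS was 760 bp in the members and 314.5 bp in the 268. Shared strong peaks lay closer to a TSS in replicate 1 as well, at a median of 343 bp, against 429.5 bp in replicate 3. How far the contrast belongs to the 2 lists as a whole was not tested. At least 40% GC was reached by 32.2% of members and 31.3% of the 268, and regulator genes received 5.79% and 7.84%, which was not tested. Which features of the libraries move with this difference could not be measured from peak lists.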

How the data were processed

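Peak lists of ChIP-seq libraries from 2 biological replicates of trh-GFP embryos were used, with coordinates on dm6, counted from 1. Per the deposited file lists, each replicate was called against the same control alignment to give a list of peaks and background as input for IDR, and further lists hold the pooled replicates and the peaks past an IDR threshold. The IDR threshold and the programs for alignment and peak calling were not given in the sources used here. In these lists column 7 is a score, the signal value the authors' peak caller gave each peak, and the deposited −log10 q value stands beside it. No read counts are in them, so depths are unknown, and whether the 2 samples came from separate collections of embryos is known only as the labels call them biological replicates.

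The members, gene lists and sequences were chosen with earlier results of these data known. Summits were compared within 100 bp, and intervals by an overlap of at least 1 bp. Locations came from the Ensembl BDGP6.54 annotation (release 115), with a promoter reaching 500 bp to each side of any TSS and taking precedence, then exon classes (5' UTR before coding before 3' UTR before non-coding), then intron. Sequence was read from the RefSeq release 6 genome, and the ends of the peaks were checked against its chromosome lengths. GC content and 15 sequences were taken from windows of 50 bp to each side of the summit. Of 682 symbols in 26 gene lists, 679 matched. Members were compared with shared peaks by Fisher's exact test, two-sided, with Benjamini-Hochberg adjusted p-values over the 7 classes, the 3 single shares or the 15 sequences. The tests were checked on simulated data. Named are the genes of the 25 strongest members, genes with at least 2 members, listed genes by highest signal (up to 8 of each developmental list and 3 of each other list), and 3 peaks on each side of each threshold. Other distances, numbers of top peaks, promoter widths, windows and rank ranges were tried as alternatives. Peak lists on dm3 served for a count alone. The software was pandas 2.3.3, scipy 1.17.1, numpy 2.4.6 and matplotlib 3.10.9 under Python 3.11.15. Some members that this rule names are not reported here.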

Additional observations from a re-analysis of the deposited data

How the results depend on the processing

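Of 107 values, 78 were counted as unchanged under the alternatives tried. For tested shares this means the same direction and side of the threshold. Counts of peaks had to stay within 1.5 times, and the number of sequences that passed had to be equal. Gene-list shares of members had to stay inside the exact interval of the main analysis, without regard to their direction against shared peaks. That direction varied: regulator lists held 7.76% of members and 6.36% of shared peaks at 50 bp, and 5.97% and 6.83% at 250 bp. The number of peaks follows from the criterion itself: 735 with a match within 50 bp, 67 within 250 bp, 44 within 500 bp, 50 by overlap of intervals, 38 in the top 1000 peaks and 1414 in the top 5000. The same rule on dm3 gave 183 of 2074 top peaks (8.82%). Ratios below are of members to shared peaks. With a match within 50 bp no location class passed: the promoter ratio was 0.972, intergenic 1.06, coding exon 3.24 and intron 1.01 (reversed), and the GC ratio was 1.18. The 1 sequence that passed there was the forkhead type, less frequent in members (ratio 0.410). In the top 1000, with 38 members, the ratios for promoters (1.14), coding exons (0) and GC (0.449) reversed. Those for intergenic peaks (1.504) and peaks over 5000 bp from a TSS (1.23) no longer passed there. Regulator lists then held 0% of the 38 members and 6.34% of shared peaks. In the top 5000 the intron ratio reversed to 1.10 and the X chromosome ratio passed at 0.643. The 3 sequences that passed there were the TATA box (ratio 0.674), the forkhead type (0.525) and CACACA (1.41). The share over 5000 bp from a TSS no longer passed among ranks from 1162 (1.31), with 1 peak per gene (1.36) or at ranks 1859 to 2322 (1.52). The GC share no longer passed with 1 peak per gene (1.25) or in wider windows (1.27). In those wider windows ACGTG was in 19.0% of members and 12.5% of shared peaks (unadjusted p = 0.00669, adjusted p = 0.100, Fisher's exact test). Among ranks from 1162 it was in 10.9% and 6.30% (unadjusted p = 0.0304, adjusted p = 0.457, same exact test). In the top 1000 ACGTG was in 5.26% of members and 6.13% of shared peaks. Housekeeping lists held 0% of members with a match within 500 bp (3.25% of shared peaks) or by overlap of intervals (3.26%). At ranks 1859 to 2322 they held 0.980% of members and 2.21% of shared peaks. The cause was not tested. The range of ranks 1859 to 2322 and the alternatives for coding exons were chosen after seeing the data. No paired analysis was possible because there is 1 group, and no replicate could be left out because the selection needs both. Without depths, a peak missing from the replicate 1 list cannot be told apart from one too weak to be called there.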
